A study of Homo sapiens with 6 samples.

Results

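The genes described here encode the MYC and MAX network of transcription factors in HEL cells, a human erythroleukemia cell line. The 10 genes were chosen by name, and all 10 were among the 31999 genes of the deposited table. They are the MYC factors MYC, MYCN and MYCL, their partner MAX, the antagonists MXD1, MXD3, MXD4, MXI1 and MNT, and MLX, the MAX-like factor. Poly(A) RNA was sequenced from 3 libraries of cells with a control hairpin (shCtrl) and 3 libraries of cells with a hairpin against TMIGD2 (shTMIGD2). TMIGD2 is an immunoglobulin-family surface receptor, and the hairpins were delivered by lentivirus for stable knockdown. All cells were of 1 line grown in RPMI with serum, so both groups share its genetic background.

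MYC factors bind DNA as dimers with MAX, through a basic helix-loop-helix leucine zipper, at E-boxes, and act mainly as activators of growth and ribosome genes. MXD proteins and MNT compete for the same partner and the same sites, and recruit SIN3 and histone deacetylases to repress them. MLX heads a parallel branch with MLXIP and MLXIPL, which respond to glucose metabolites, and also pairs with some MXD proteins and MNT. In blood cells, MYC is known for sustaining proliferation of progenitors, and several MXD genes for being switched on as cells mature.

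The value used for each gene was the mean log2 CPM (CPM being a count divided by the size of its library) that the authors gave over the libraries of both groups together. A value of this kind has no replicates behind it that could be compared, so no SD, n per group or test accompanies any level. The depth of the libraries is unknown from it, and no counting interval was given. The difference between shCtrl and shTMIGD2 was not analysed here, and each level is a property of the pooled set of libraries. In bulk RNA, fewer cells with a transcript and less transcript per cell cannot be told apart.

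The labelled cell type was checked against its markers first. All 12 erythroid and megakaryocyte markers were at or above a mean log2 CPM of 0, with a median of 7.79, from EPOR, the erythropoietin receptor, at 5.52 to ITGA2B, the platelet integrin CD41, at 10.54. Of the markers of other cells, 1 of 3 listed for T cells, 2 of 5 for B cells, 2 of 6 for monocytes and granulocytes and 2 of 6 for fibroblasts and endothelium reached 0. Their median levels were -2.25, -2.25, -2.99 and -1.78 log2 CPM. The highest of them were CD2 at 2.95, CD79A at 2.32, LYZ at 4.40 and PECAM1 at 7.24. The lowest were CD3G at -3.66, CD22 at -3.40, S100A8 at -3.76 and COL1A2 at -3.40. TMIGD2 itself had a pooled level of 4.08 log2 CPM, which cannot check the knockdown.

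Canonical E-boxes, sites of the kind that the network's proteins bind, were searched for in the promoters of its own genes. A RefSeq promoter window on GRCh38, from 250 bases before to 50 bases after the annotated start, was matched for 9 of the 10 genes and not for MYC. MAX and MXI1 had more than 1 start, which gave 12 windows in all. The motif CACGTG, which reads the same on both strands, was found in 3 of these windows, 1 each for MXD4, MNT and MLX. They are shown here 5′ to 3′ on the strand of the gene, with 10 bases on either side and the E-box in capitals.
MXD4: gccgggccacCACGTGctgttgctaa
MNT: ctgcccgggcCACGTGtgcgcgcgcc
MLX: gggcgcgggtCACGTGggcacgccac

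The MXD4 window lies at chr4:2262332-2262357 on the minus strand, and its E-box begins 238 bases upstream of the start. The MNT window lies at chr17:2401238-2401263 on the minus strand, with the E-box 193 bases upstream. The MLX window lies at chr17:42567040-42567065 on the plus strand, with the E-box only 50 bases upstream. Over all 35116 RefSeq promoter windows of the same length, 7.26% held the motif. Among the 13925 windows of genes at or above 0 log2 CPM the share was 9.46%. The looser motif CANNTG, which includes CACGTG, was present in 68.7% of all windows and thus separates few genes from each other. It was found in the windows of MYCL, MYCN, MXD1, MXD4, MXD3, MNT and MLX and in 1 of the 3 windows of MXI1, but in neither window of MAX. TATAAA, the TATA box letters, was found in 11.5% of all windows and in none of the 12. The GC content of the 12 windows ran from 55.0% in a window of MXI1 to 76.0% in MNT, against a median of 58.7% over all windows. These matches describe letters in a window and say nothing of binding.

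All 10 genes were at or above a mean log2 CPM of 0, as were 43.8% of all genes in the table. That share takes in many genes that are not protein-coding, whereas all 10 members are. Among protein-coding genes alone MYCN, the lowest member, was at the percentile 33.2, so most protein-coding genes also passed. Their levels spread from 0.58 log2 CPM for MYCN to 9.40 for MYC, and their median was 3.92, against -0.97 over all genes. The median of the protein-coding genes was 3.64, and that of the genes at or above 0 was 4.55, so the network genes lay above or below the middle depending on the genes they were set against. The 3 MYC factors stood at both ends of the network. MYC (chromosome 8, 127735434 to 127742951, plus strand, in GENCODE 44 on GRCh38) was at 9.40 log2 CPM, or 674 CPM. That placed it at rank 173 of 31999, above 99.5% of the genes. MYCL, on chromosome 1 from 39895428 to 39902256, was at 1.82 log2 CPM, or 3.53 CPM. MYCN, on chromosome 2 from 15940550 to 15947007 and best known from neuroblastoma, was at 0.58 log2 CPM, or 1.50 CPM. MYC thus contributed 99.3% of the CPM of the 3 MYC factors.

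**Figure D1:**
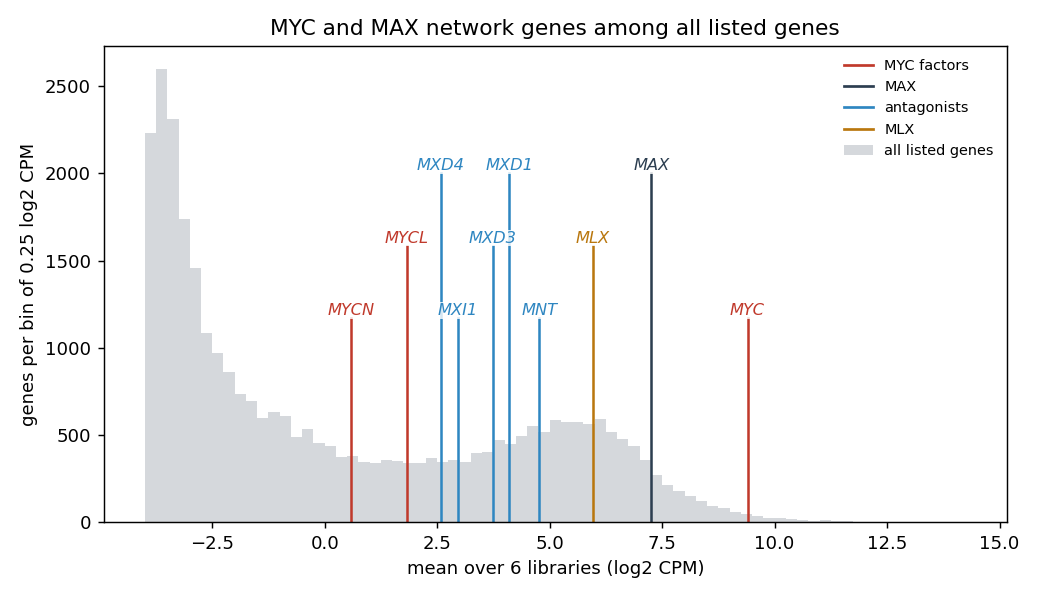
Histogram of the mean log2 CPM of all 31999 genes (grey, genes per bin of 0.25), with a vertical line for each network gene, coloured by class; the heights of the lines only separate the names. MYC stands in the upper tail at 9.40, MAX and MLX lie at 7.26 and 5.96, the antagonists between 2.58 and 4.77, and MYCN lowest at 0.58.

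MAX, the obligate partner, was the second most abundant member in CPM. It lies on chromosome 14, at 65006174 to 65102695 of the minus strand, and its pooled level was 7.26 log2 CPM, or 153 CPM, above 95.8% of all genes. MLX, on the plus strand of chromosome 17 from 42567072 to 42573239, followed at 5.96 log2 CPM, or 62.1 CPM. These 3 genes, MYC, MAX and MLX, each had more CPM than any antagonist.

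The antagonists formed a lower group. MNT, the broadly expressed member that opposes MYC in cycling cells, was the highest of them at 4.77 log2 CPM (chromosome 17, 2384073 to 2401104). MXD1, the founding MXD gene, was at 4.11 (chromosome 2, 69897688 to 69942945). MXD3, which is known to be expressed in proliferating progenitors, was at 3.74 (chromosome 5, 177301461 to 177312757). MXI1, also known as MXD2, was at 2.96 (chromosome 10, 110207605 to 110287365), and MXD4 was lowest at 2.58 (chromosome 4, 2247432 to 2262109). In CPM they ranged from 5.99 for MXD4 to 27.2 for MNT, and against all genes from the percentile 68.0 to 79.6. Against the protein-coding genes alone, the antagonists lay between the percentiles 42.8 and 61.7, close to the middle of that distribution.

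Longer transcripts give more fragments at the same number of molecules, so genes were compared with each other per length. CPM were divided by the merged length of all annotated exons of each gene, in kilobases (kb), from 2755 bases for MYCN to 8701 for MNT. On this scale MYC was at 110.4 CPM per kb, MAX at 24.4 and MLX at 14.6. MNT, MXD3 and MXD1 followed close together at 3.13, 2.82 and 2.71 CPM per kb. MXI1 was at 1.32, MXD4 at 0.872, MYCL at 0.710 and MYCN at 0.543 CPM per kb. For scale, the median of 16334 protein-coding genes was 2.19 CPM per kb.

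The steps between neighbours in this order were uneven. MYC was 4.52-fold above MAX, MAX 1.67-fold above MLX, and MLX 4.67-fold above MNT in CPM per kb. MNT was 1.11-fold above MXD3, and MXD3 1.04-fold above MXD1. Neighbours that close cannot be ranked from a single pooled value, and their order turned with the definition of length. Per kb of the longest annotated transcript MXD3 (5.86) lay above MNT (5.52), and per kb of coding sequence MXD1 (26.0) lay above both MXD3 (21.6) and MNT (15.6). MXI1 and MXD4 also changed places per kb of coding sequence, at 8.82 and 9.56. The ranks of MYC, MAX and MLX as the upper 3 and of MYCL and MYCN as the lower pair were the same under the 3 definitions.

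**Figure D2:**
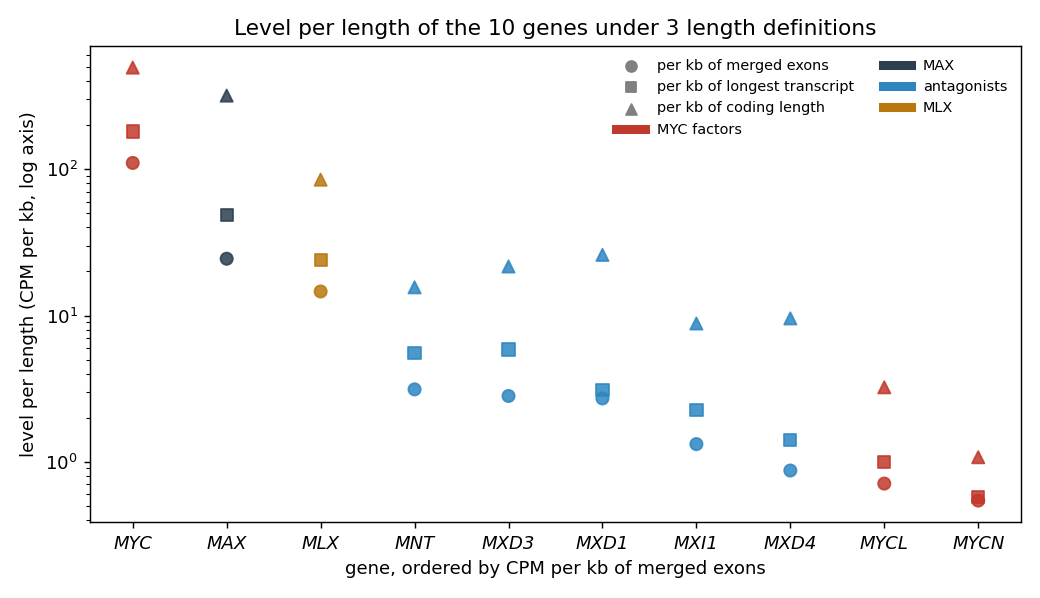
Level per length of each gene (CPM per kb, log axis), ordered by CPM per kb of merged exons; circles, squares and triangles stand for merged exons, the longest transcript and the coding length, and colours for the class. MYC, MAX and MLX lead under each definition, and the 3 definitions cross among MNT, MXD3 and MXD1 and between MXI1 and MXD4.

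The classes of the network, of which MLX belongs to the parallel branch, were then set side by side. MGA, a further MAX partner, is outside the 10 genes and is not part of the shares. Summed over merged exon lengths, the 3 MYC factors reached 111.6 CPM per kb, which was 69.1% of the total of the 10 genes. MAX made up 15.1%, MLX 9.04% and the 5 antagonists together 6.72%. MYC RNA was thus 10.2 times the summed RNA of the antagonists, and MAX RNA was 2.25 times that sum. By coding length these ratios were 6.07 and 3.91. The size of the gap between MYC and MAX also rested on how length was counted. MAX has a short coding sequence of 480 bases in merged exons of 6257, while MYC has 1362 in 6109. Per kb of coding sequence MYC was 1.55-fold above MAX in place of 4.52-fold. Fragments were counted per gene, so the coding length leaves out untranslated bases that can also yield fragments. It therefore raises genes such as MAX, and merged exons are the main scale here. Merged exons pool all annotated transcripts, 19 of MAX and 15 of MYC, so they can exceed the length of any 1 transcript. Per kb of the longest transcript, 3155 bases for MAX and 3721 for MYC, MYC was 3.74-fold above MAX. By coding length the MYC factors held 50.7%, MAX 32.4%, MLX 8.62% and the antagonists 8.28%. Under each scale MYC had more RNA than MAX, and MAX had more than the antagonists combined. Protein was not measured here, and RNA levels do not give the amounts of dimers.

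**Figure D3:**
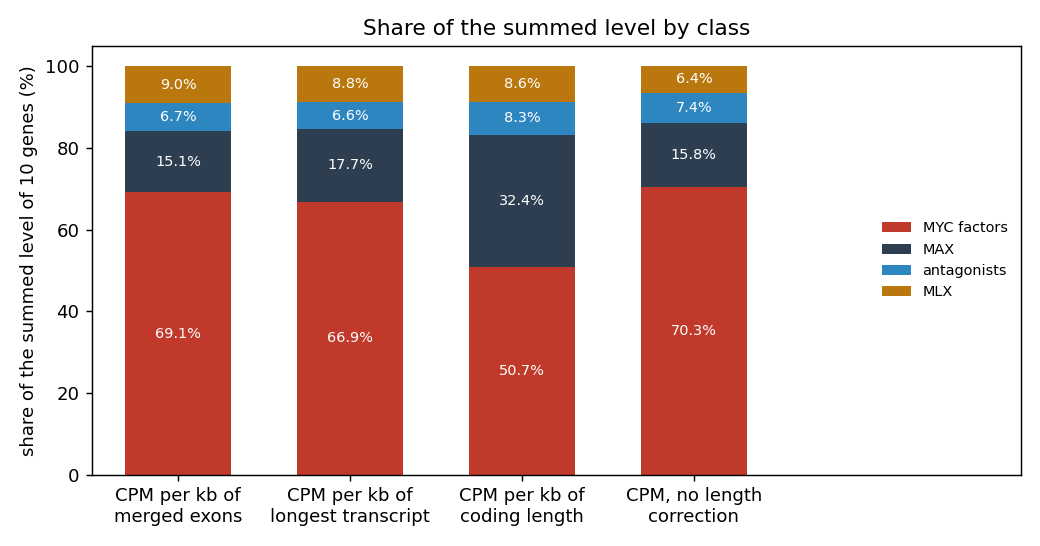
Share of the summed level of the 10 genes (%) held by each class, with CPM divided by 3 definitions of length and, on the right, with no length correction. The MYC factors hold from 50.7% to 70.3%, MAX from 15.1% to 32.4% and the 5 antagonists from 6.63% to 8.28%.

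Other genes share exons with several members, and the sources used here do not say whether counting used the strand of the directional libraries. The largest such overlap was that of MXD3, of whose merged exons 24.2% lie under exons of PRELID1 on the opposite strand. PRELID1, a mitochondrial lipid transfer gene, was at 6.77 log2 CPM, above MXD3 at 3.74. A further 19.5% of the MXD3 exons are shared with RAB24 on the same strand, which was at 2.98. The level of MXD3 is therefore uncertain. MLX shares 18.2% of its exon bases with PSMC3IP (3.30 log2 CPM) and MAX 13.1% with FNTB (3.04 log2 CPM). Both lie on the opposite strand and both were below the member. How fragments on shared bases were assigned is not given, so the levels of MLX and MAX may be affected as well. MXD1 shares 3.73% with SNRNP27 on the same strand, at 4.52 log2 CPM. The antisense RNAs CASC11 at MYC and MYCNOS at MYCN were at -2.28 and -2.87 log2 CPM, far below the genes they overlap.

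Relatives of the network outside the 10 genes were described from a list of 8, of which 7 reached a mean log2 CPM of 0. Of all genes, 43.8% did so, as did most protein-coding genes. MLXIP, the glucose-responsive partner of MLX also known as MondoA, was highest at 7.60 log2 CPM, while MLXIPL, the related factor ChREBP of liver and fat, was at -3.40, near the lowest value in the table of -3.76. MLX was thus measured with only 1 of these 2 partners at an appreciable level. Per kb of merged exons MLXIP (14.0 CPM per kb) and MLX (14.6 CPM per kb) were alike in level. MGA, the very large MAX partner found in a polycomb complex, was at 7.15 log2 CPM but at 7.09 CPM per kb, which is above each antagonist on that scale. The E-box factors USF1 and USF2 were at 20.7 and 12.2 CPM per kb, and TFAP4 at 4.12. TFE3, a regulator of lysosome genes, was at 7.23 CPM per kb, and its relative TFEB was at 0.219.

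The cofactors of both arms were listed at high levels. Against 43.8% of all genes and most protein-coding genes, 15 of 15 MYC cofactors reached a mean log2 CPM of 0. Their median was 6.85, against 3.64 for the protein-coding genes. The cofactors ran from KAT5, an acetyltransferase, at 4.07 to HCFC1, a host cell factor that binds MYC, at 8.19. Of 11 corepressor genes used by MXD proteins and MNT, 11 did so, with a median of 7.44, from SAP30 at 5.41 to RBBP4, a histone chaperone, at 8.87. The corepressor genes thus had a higher median log2 CPM than the antagonists that recruit them, although these levels are not per length. Of 14 regulators of MYC protein stability, 13 reached 0, with a median of 6.15. HUWE1, a ubiquitin ligase, was highest at 8.78, and FBXO32, another ligase subunit, was lowest at -1.27.

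Textbook targets of MYC were the most abundant of the pathway lists. All 25 of them reached a mean log2 CPM of 0, as did 43.8% of all genes and most protein-coding genes. The median of the targets, 8.30 log2 CPM, lay at the percentile 98.4 of all genes. NPM1, the nucleolar chaperone nucleophosmin, was highest at 11.12, and TERT, the catalytic subunit of telomerase, was lowest at 0.42. One gene of the list, RCL1, acts in ribosomal RNA processing and was listed in error for RCL, the former name of the MYC target DNPH1. Without it the list has 24 genes, all at or above 0, with a median of 8.21. Such genes are used by most dividing cells, and many targets were picked as such for an E-box, so neither their level nor the motif is evidence of MYC activity here.

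**Figure D4:**
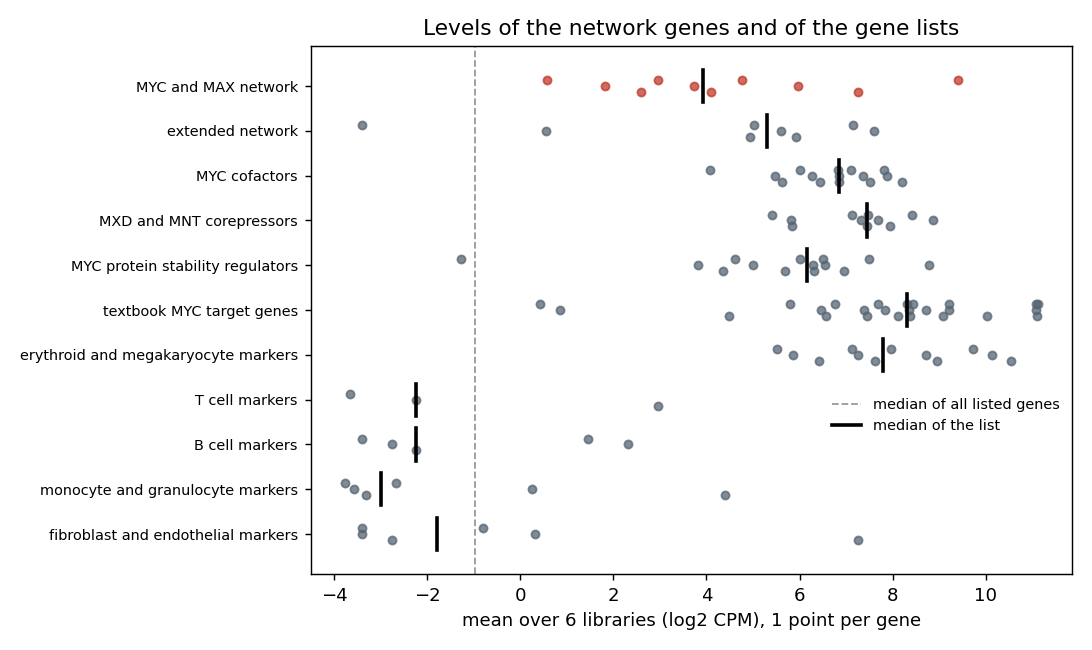
Mean log2 CPM of each gene (1 point per gene) in the network and in the other gene lists, with the median of each list (black bar) and the median of all genes, -0.97 (dashed). The network genes spread from 0.58 to 9.40, the textbook targets have a median of 8.30, and the medians of the 4 lists of other cell types fall below that of all genes.

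The canonical E-box was found in the promoter windows of 14 of the 24 textbook targets with a window, or 58.3%. Without RCL1, which does not belong on the list, it was 13 of 23, or 56.5%. For the 27305 genes with a window it was 8.77%, for the 9572 of them at or above 0 log2 CPM it was 12.7%, and for the network genes 3 of 9. Of 7 genes of the wider network with a window, none held it. The following windows show the motif in targets of different function, and were picked after the search: ODC1 makes polyamines, FBL modifies ribosomal RNA, CDK4 drives G1, and HSPD1 is a mitochondrial chaperone. The windows of ODC1 and CDK4 hold 2 and 3 such sites, of which 1 each is shown. The E-box is again in capitals.
ODC1: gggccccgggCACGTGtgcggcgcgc
FBL: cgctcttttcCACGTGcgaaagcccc
CDK4: gggtggcggtCACGTGcccagaacgt
HSPD1: gccctggcgaCACGTGaaaaaatcac

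The ODC1 site shown lies at chr2:10448026-10448051, the FBL site at chr19:39846358-39846383, the CDK4 site shown at chr12:57752396-57752421 and the HSPD1 site at chr2:197500347-197500372, all on the minus strand of GRCh38. The HSPD1 site also falls in the window of HSPE1, the cochaperone gene on the plus strand. It lies 88 bases upstream of the HSPD1 start and 22 bases upstream of the HSPE1 start, so these genes are read away from each other. In level, ODC1 was at 9.21, FBL at 8.30, CDK4 at 7.39 and HSPD1 at 10.02 log2 CPM. Next to MYC at 9.40, these levels lie within the same upper tail of the table, but they are not per length. Per kb of merged exons ODC1 (179.3), FBL (147.6) and HSPD1 (135.8 CPM per kb) lay above MYC (110.4), and CDK4 (54.1) lay below it.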

How the data were processed

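RNA of 3 shCtrl and 3 shTMIGD2 HEL libraries was grouped by sample titles. According to the submitters' processing notes and the paper's methods, the authors aligned reads with STAR 2.6.1b to hg38 and counted fragments with HTSeq 0.6.1. The authors list DESeq2 3.11 and edgeR among their tools. The authors' deposited table gives 1 mean log2 CPM per gene, taken here as a mean over all 6 libraries. The paper's methods name a UCSC copy of refSeq for counting and, for the authors' DESeq2 test, a minimum mean count of 1 in a group. Whether either holds for this table, and its normalization factors, are not given in the sources used here. Its other columns hold the authors' own comparison (log2 fold changes, F values, and p-values before and after adjustment), and these were not used. A count test was planned only for the case of counts per library and was not run.

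CPM were taken as 2 to the power of the mean log2 CPM. Lengths, positions and overlaps came from GENCODE 44 (GRCh38), which matched 22810 of the 31999 gene names by symbol. If the counts rest on other gene models, CPM per kb and overlaps may differ under those. The coding length was that of the annotated canonical transcript. Promoters came from RefSeq (GRCh38.p14). A percentile is the share of genes with a lower level. The members and gene lists were chosen with earlier results of these data known. Named genes were all members, all genes of the wider network list and the highest and lowest of each other list, and any others were chosen after their values were seen. Functions were tested on simulated data. Python 3.11.15 and matplotlib 3.10.9 were used.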

Additional observations from a re-analysis of the deposited data

How the results depend on the processing

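No paired analysis was possible because the column used has 1 value per gene for all libraries, and for the same reason no library could be left out. With a cut of 1 in place of 0 on mean log2 CPM, 9 of the 10 members passed, and with a cut of -1 all 10. The median percentile of the members was 74.4 among all genes, 41.5 among genes at or above 0 log2 CPM and 52.5 among protein-coding genes. Of 45 pairs of members, 44 kept their order by merged exons with the longest transcript and 41 with the coding length. The latter was taken from the annotated coding sequence. The shares of the MYC factors, MAX, the antagonists and MLX were 66.9%, 17.7%, 6.63% and 8.78% with the longest transcript. They were 50.7%, 32.4%, 8.28% and 8.62% with the coding length, and 70.3%, 15.8%, 7.41% and 6.43% with no length correction. The shift towards MAX follows from its short coding sequence, and the coding length leaves out untranslated bases that the authors' counts can include. With genes at or above 0 log2 CPM alone, the list medians were 5.60 for the wider network, 6.29 for MYC protein stability regulators, 2.95 for T cell, 1.89 for B cell, 2.33 for monocyte and granulocyte and 3.78 for fibroblast and endothelial markers, since that filter removes the genes below it. The medians of the other 4 lists stayed as they were. Leaving out RCL1, an alternative chosen after seeing the data, gave the textbook targets a median of 8.21. Depth was unknown, so the precision of low levels such as those of MYCN and MYCL was not measured.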
